A study of Nannochloropsis oceanica strain IMET1 with 15 samples.

Results

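The comparison described here was between M4 and M3, a pair of NO06G02500-knockout lines of *Nannochloropsis oceanica* strain IMET1, and it used 6 of the 15 RNA-seq libraries of the series. The members were taken from the sample labels, which gave the 3 libraries of M4 and the 3 libraries of M3. Both lines carried a Cas9 edit in the same gene and the zeocin resistance marker of the editing vector, which the WT lacked, and each was grown from a single resistant colony, so each line is 1 clone. Their genes that differ are differences between clones that share a knocked-out gene. All cultures, including 3 of the unedited WT and 3 each of the NO08G00280-knockout clones M1 and M2, grew in glass columns under high light and were harvested on day 7. The labels number the libraries of a clone as replicates.

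N6-methyladenine (6mA) is a base modification of DNA, which methyltransferases write and which some enzymes of the AlkB family can remove. NO06G02500 encodes an AlkB-family protein and was the candidate 6mA demethylase of the study, while NO08G00280 encodes a candidate 6mA methyltransferase. *N. oceanica* is a unicellular marine alga that stores carbon as triacylglycerol in lipid droplets, and strong light is among the conditions that raise this storage. Lines that come from separate colonies can differ in their edit, in where the vector went and in changes acquired during transformation and growth, so that a comparison of clones describes how far lines of 1 target differ. Gene names below are those of *Arabidopsis* matches in the gene list of the study and describe a function known in land plants, except where stated.

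The values were TMM-normalised TPM, in which a transcript level is given per length of gene and per library. Within a clone the libraries correlated over the 9440 tested genes with r of 0.896 to 0.904 in M3 and 0.897 to 0.907 in M4, and an M3 library correlated with an M4 library with r of 0.868 to 0.895. The median SD between the libraries of a clone, on the scale of log2(value + 1), was 0.163 in M3 and 0.131 in M4. Read counts were not used here, and coverage divided by FPKM, which rises with depth, overlapped between M3 (5.18 to 5.51) and M4 (5.10 to 5.33). Organelle genes made up 0.0352% to 0.0420% of the values in M3, 0.0600% to 0.0750% in M4 and 0.0330% to 0.0476% in the WT.

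The edited gene was still transcribed in both clones. NO06G02500, on chromosome 6 from 702217 to 703737, had normalised TPM of 76.7, 69.8 and 69.0 in M3, 54.5, 55.3 and 58.1 in M4 and 58.8, 55.3 and 55.7 in the WT. Every M3 library thus lay above every M4 and WT library. The transcript was lower in M4 than in M3 by a log2 difference of -0.35 (SE 0.07, adjusted p = 0.00393), and higher in M3 than in the WT (log2 difference 0.34, adjusted p = 0.0435), whereas M4 differed from the WT by -0.02 (adjusted p = 0.936). An edit at a guide target site can leave the transcript in place, so these levels do not check the edits, and reads over the sites were not analysed here. The transcript of NO08G00280, which neither clone had edited, was at 7.65 to 12.7 in M3 and 11.7 to 13.2 in M4 (log2 difference 0.25, adjusted p = 0.427).

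Many genes differed between the clones, most of them by little. Differences were tested with limma on log2(value + 1), and a gene is called higher or lower at an adjusted p under 0.05. Of 9440 tested genes, 2421 were called (25.6%), of which 1112 were higher in M4 (11.8%) and 1309 lower (13.9%). The median absolute log2 difference of the called genes was 0.50, against 0.26 over all tested genes, and 1507 of the called genes (62.2%) differed by less than 1.5-fold. Only 225 of them (2.38% of the tested genes) passed 2-fold, with 134 higher (1.42%) and 91 lower (0.964%), and 28 passed 4-fold. By the thresholds of the study for a differentially expressed gene (DEG), an adjusted p of 0.001 or less and more than 2-fold, the clones differed in 10 genes (0.106%), with 5 higher (0.053%) and 5 lower (0.053%) in M4. The 2421 were 1508 without M3 replicate 3 and 1392 without M4 replicate 2, and the 10 were 6 without M3 replicate 3 or M4 replicate 3. In 2360 of the called genes the 3 libraries of M4 did not overlap those of M3, which held for 3822 of all tested genes (40.5%).

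**Figure D1:**
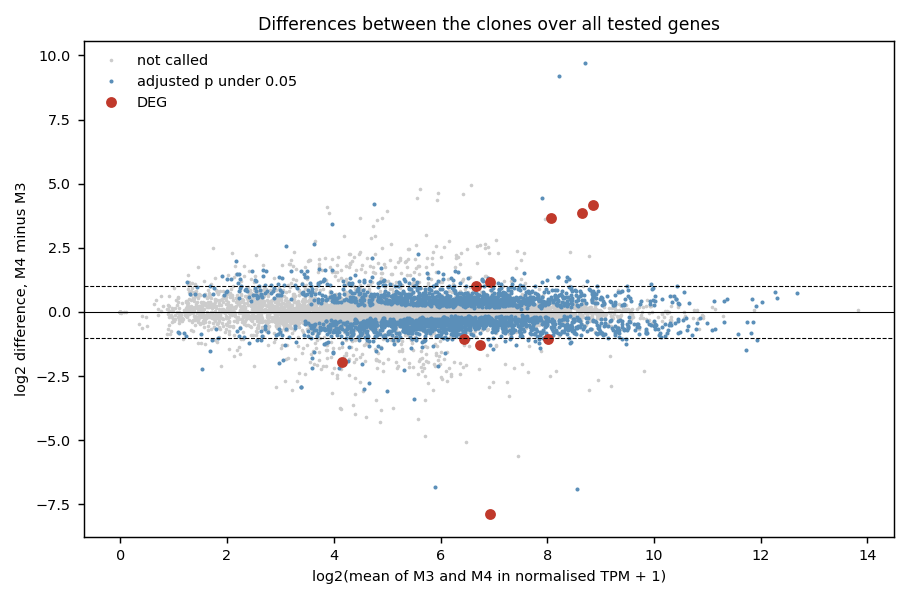
Each point is 1 tested gene, with the log2 of its mean normalised TPM in M3 and M4 plus 1 on the horizontal axis and its fitted log2 difference, M4 minus M3, on the vertical axis; blue points passed an adjusted p of 0.05, red points are the 10 DEGs and dashed lines mark 2-fold. Most blue points lie inside the dashed lines, and fitted differences beyond 5 belong to genes at or near 0 in libraries of 1 clone, whose size depends on the pseudocount.

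The largest difference in a set of neighbouring genes was on chromosome 10, where 3 adjacent genes between 130548 and 136356 were DEGs and far higher in M4. NO10G00370 is listed as a 5-formyltetrahydrofolate cycloligase, an enzyme that returns 5-formyltetrahydrofolate to the pool of folates that carry single carbon units. Its normalised TPM was 49.6, 36.3 and 30.9 in M3, 488, 511 and 489 in M4 and 329, 446 and 366 in the WT, so M4 was slightly above the range of the WT and M3 far below both. The mean was 12.7 times as high in M4 as in M3 (log2 difference 3.66, SE 0.25, adjusted p = 2.4e-05). NO10G00380, which carries no description, was at 63.4, 44.7 and 36.8 in M3 and at 818, 849 and 961 in M4 (log2 difference 4.19, SE 0.23, adjusted p = 2.6e-06). NO10G00390, also without a description, was at 63.2, 33.3 and 54.3 in M3 and at 800, 488 and 957 in M4 (log2 difference 3.86, SE 0.30, adjusted p = 6.7e-05).

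The low side of this difference was in M3. In the WT, NO10G00380 was at 582 to 822 and NO10G00390 at 638 to 878, and M3 was lower than the WT in all 3 genes (log2 differences -3.27 for NO10G00370, -3.86 for NO10G00380 and -3.90 for NO10G00390, adjusted p of 5.0e-05, 6.7e-06 and 5.0e-05). M4 differed from the WT by 0.39, 0.33 and -0.04 (adjusted p of 0.406, 0.454 and 0.972). The NO08G00280 clones lay between M3 and the WT, with NO10G00370 at 114 to 258 in M1 and 76.4 to 102 in M2. The genes on either side, named here after their values were seen, did not pass the test. NO10G00360 was at 11.5 to 16.3 in M3 and 15.0 to 15.7 in M4, and NO10G00400 at 32.2 to 41.7 and 35.4 to 47.6. The library kit named by the study is not a kit that marks strand, and NO10G00370 overlaps NO10G00360 and NO10G00380 on the opposite strand, so that their shared reads cannot be told apart, whereas NO10G00390 overlaps no other gene.

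NO04G01590, on chromosome 4 from 481024 to 482757 and without a description, was present in M3 alone of this pair. It was at 163, 266 and 295 in M3 and listed at 0 in all 3 libraries of M4 and all 3 of the WT (adjusted p of M4 against M3 = 2.2e-10). The spread behind this limma value is shared by all 5 groups, and M4, the WT and M1 had an SD of 0 here. Under other settings the adjusted p was at most 3.3e-04. NO04G01590 was also listed at 0 in M1 but at 189, 204 and 215 in M2, so the same transcript was seen in 1 clone of each knocked-out gene. Its neighbour on the same strand, NO04G01610, starts 157 bases past its end and was lower in M3, at 115 to 123 against 180.0 to 196 in M4. StringTie can share reads between close genes, and whether it did so here was not tested. The sum over both genes was 284.7 to 410.5 in M3 and 180.0 to 196 in M4. These values are per gene length, so a sum can change when reads move between genes of unequal length. The neighbour was named after its values were seen. NO04G01590 was the only DEG that kept this status under each of 22 alternative settings.

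NO18G00300 is listed as a member of glycosyl hydrolase family 85, whose enzymes cut N-linked glycans from proteins. It was at 30.4, 27.9 and 23.5 in M3 and at 6.84, 6.03 and 6.16 in M4, which gives a mean 4.29 times as high in M3 (log2 difference -1.94, SE 0.15, adjusted p = 7.3e-05). Its values in the WT were 3.70 to 5.64, below all libraries of both clones, and M3 was higher than the WT (log2 difference 2.29, adjusted p = 1.9e-05), while M4 did not pass the test (0.36, adjusted p = 0.212). The gene overlaps NO18G00290 on the opposite strand, which was at 3.96 to 5.19 in M3 and 3.52 to 4.11 in M4. The 3 genes of chromosome 10 and NO18G00300 were DEGs under 21 of 22 alternatives. The exception was a fit of the 6 libraries alone, where each still passed an adjusted p of 0.05 with a highest value of 0.00761.

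The other 5 DEGs differed by 1.01 to 1.27 on the log2 scale, in either direction, and stood close to the thresholds. Of these, NO04G04860 is listed as beta glucosidase 42, an enzyme that takes glucose from plant glycosides, and it was at 65.4, 65.1 and 67.5 in M3 and 124, 136 and 143 in M4 (log2 difference 1.01, SE 0.11, adjusted p = 9.7e-04). NO28G01070, without a description, was at 73.3, 79.2 and 67.4 in M3 and 169, 168 and 163 in M4 (1.18, SE 0.13, adjusted p = 9.7e-04). In both genes the WT lay between the clones, at 77.3 to 104 and 88.5 to 91.9. NO14G02380, NO18G00640 and NO23G00090, none of them described, were lower in M4 and are given below with the WT. Leaving out any 1 library of M3 or M4 ended the DEG status of NO04G04860, NO28G01070 and NO14G02380, and leaving out some of them that of NO18G00640 and NO23G00090, with adjusted p of at most 0.00916 for these 5 over all settings.

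**Figure D2:**
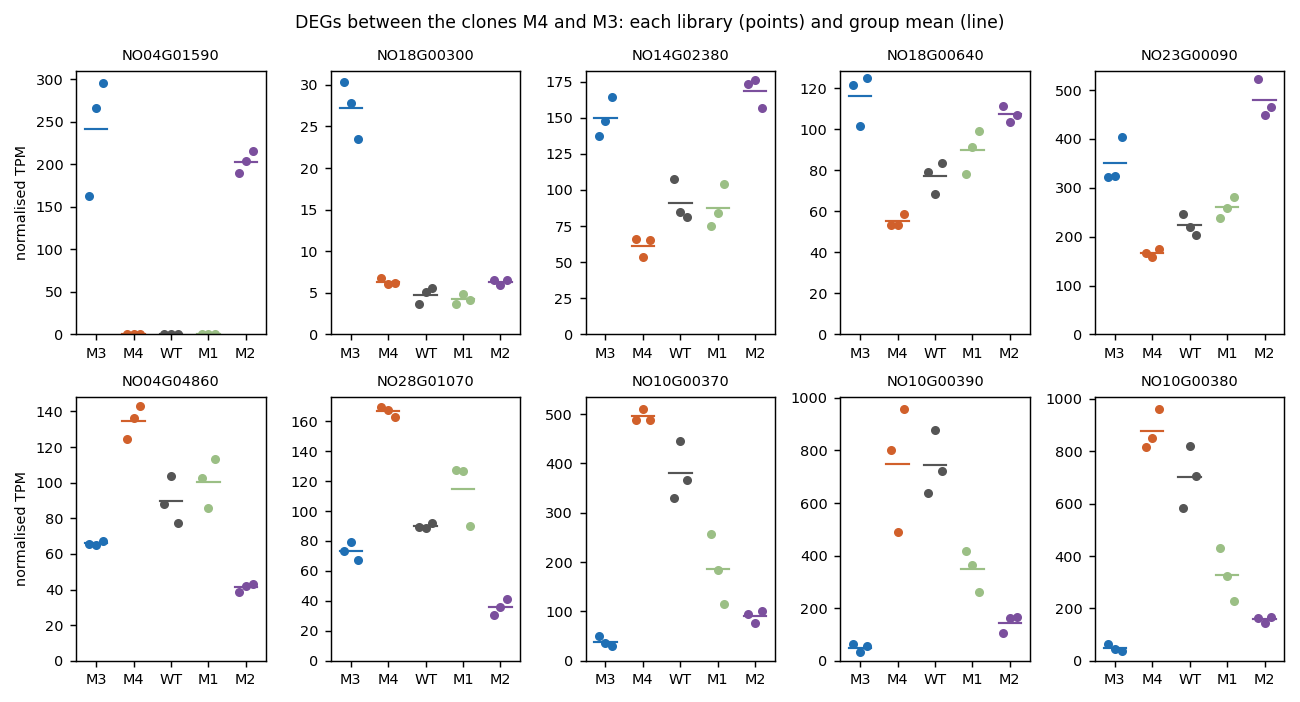
Normalised TPM of the 10 DEGs in each library of the 5 groups, with a line at the mean of a group of 3; the upper row holds the genes lower in M4 than in M3 and the lower row those higher in M4, and each vertical axis starts at 0 with its own scale. M3 and M4 do not overlap in any panel; NO04G01590 is at 0 outside M3 and M2, and M3 is the lowest group for the 3 genes of chromosome 10.

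Some genes were listed at or near 0 in a whole clone and were high in the other. With a limit of 0.5 in each library of a clone and 5 in each of the other, there were 4 such genes: NO04G01590, NO02G02140, NO19G00910 and NO11G01260. NO02G02140, which overlaps NO02G02150, was listed at 0 in M3 and was at 822, 757 and 909 in M4. Its neighbour NO02G02130, 109 bases away on the same strand, was at 677 to 831 in M3 and 3.82 to 7.64 in M4. The sum over both genes was 751 in M3 and 835 in M4, a log2 difference of 0.15. In the WT the first library had its value in NO02G02130 (743, with NO02G02140 listed at 0) and the other two in NO02G02140 (1078 and 979), so the same switch occurred between replicates of 1 line.

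NO19G00910 was listed at 0 in M3 and in the WT and was at 628, 540 and 618 in M4. NO19G00900, 16 bases away, was at 81.9, 410.3 and 428 in M3 and 49.8 to 63.9 in M4, and the sums were 307 and 654 on average. The difference of the mean log2 sums was 1.42, and 0.64 without M3 replicate 1, an alternative chosen after seeing the data. NO11G01260 was at 111 to 125 in M3 and at most 0.09 in M4, where its neighbour NO11G01250 was at 61.8 to 112.4 against 30.9 to 47.9 in M3. The call of NO02G02140 (adjusted p = 0.0248) ended without any 1 library but M3 replicate 1, and that of NO11G01260 (adjusted p = 0.0227) without M3 replicate 2, M3 replicate 3, M4 replicate 2 or M4 replicate 3. The sum of NO11G01250 and NO11G01260 was lower in M4 by 0.83 on the log2 scale, and the second library of the WT had the pattern of M4. A replicate at 10% or less of the highest of its group, where that highest value was at least 20, was seen in 602 tested genes (6.38%), among them 11 of the 28 called genes beyond 4-fold and none of the 10 DEGs. For such genes a difference between clones and a different split of reads between neighbours cannot be told apart. Such a switch in any group widens the SE of a gene in the fit of all libraries (2.77 for NO02G02140), so it can hardly be a DEG there. In the fit of M3 and M4 alone, NO02G02140, NO11G01260 and NO19G00910 were DEGs. The rule also misses a switch shared by all libraries of a clone. The absence of these genes among the DEGs therefore does not clear the DEGs of a different split of reads.

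**Figure D3:**
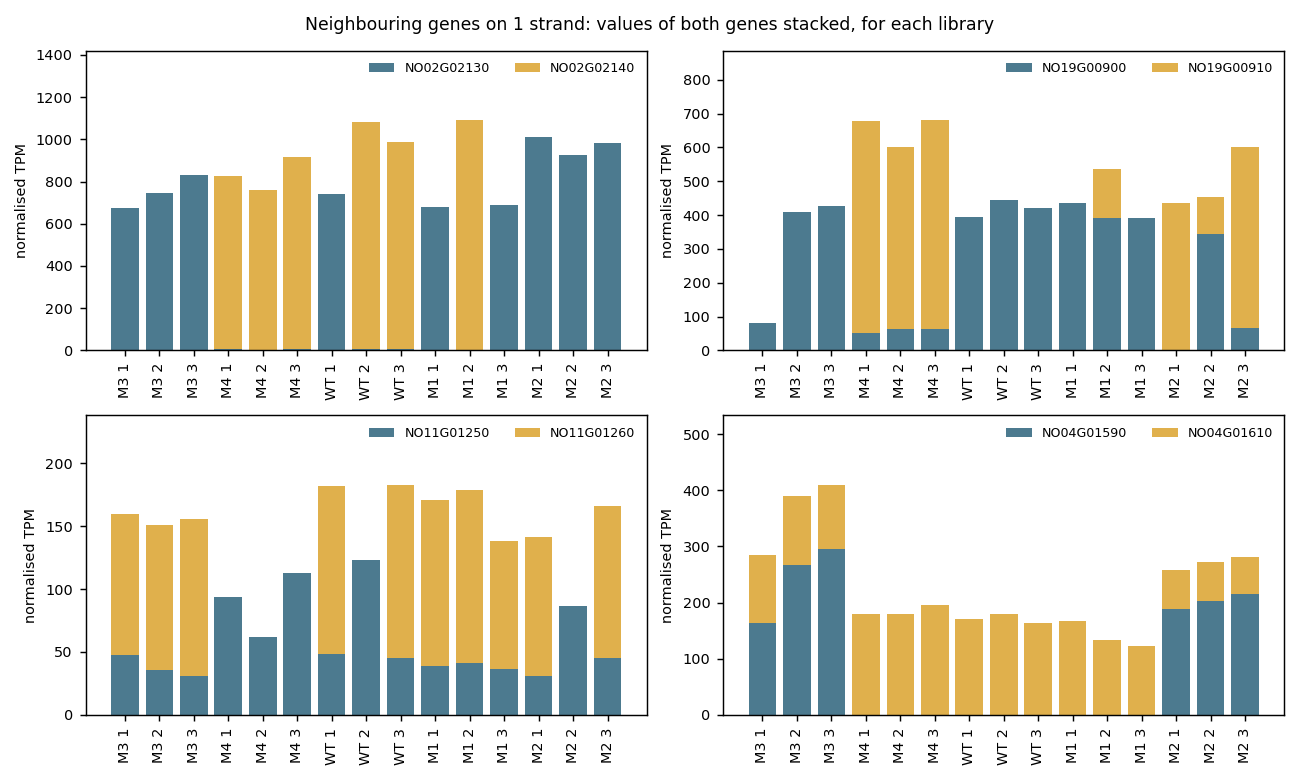
Stacked bars give the normalised TPM of both genes of 4 neighbouring pairs on 1 strand in each of the 15 libraries, with axes from 0. For NO02G02130 and NO02G02140 the total stays between 677 and 1092 while the gene that holds it changes, also among the WT and M1 libraries, whereas for NO04G01590 and NO04G01610 the total is higher in M3 and M2.

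Functional groups were described by lists picked from the described genes of the study and from organelle gene names. The described genes had been reported for their change in these libraries, so that a list is not independent evidence of its direction, and each is given beside the 11.8% higher and 13.9% lower of all tested genes, whose median log2 difference was -0.01. Among genes of light sensing, the clock and transcription, 2 of 8 tested members were higher in M4 and 2 lower (list median 0.40). NO01G04880 encodes an aureochrome, a blue-light receptor and bZIP transcription factor of stramenopile algae. It was at 68.9, 66.4 and 58.9 in M3, 149.5, 148.5 and 163 in M4 and 68.7 to 97.6 in the WT, so that M4 was above all other libraries of the pair and the WT (log2 difference to M3 of 1.24, SE 0.21, adjusted p = 0.00256). The other aureochrome, NO08G01840, was lower in M4, at 308.7 to 353 against 369 to 426 in M3 (-0.28, SE 0.06, adjusted p = 0.00836). NO19G02180, a homeodomain-like protein, was higher (2.10 to 2.65 in M3 and 5.86 to 7.94 in M4) and NO17G02330, a winged-helix transcription factor, lower (log2 difference -0.49, adjusted p = 0.0298). The calls of NO08G01840 and NO17G02330 ended in the fit of the 6 libraries alone (adjusted p of 0.0685 and 0.109), and that of NO17G02330 also without M3 replicate 2, M3 replicate 3, M4 replicate 1 or M4 replicate 2.

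Signalling proteins differed in both directions. Of 9 protein kinases, 2 were higher in M4 and 2 lower (median 0.25). Of the called kinases the largest rise was in NO10G01760, protein-serine kinase 1, which was at 14.7, 12.2 and 11.7 in M3, 49.8, 42.2 and 41.6 in M4 and 13.9 to 22.5 in the WT, with a mean 3.46 times as high in M4 (log2 difference 1.72, SE 0.21, adjusted p = 0.00102). The calcium-regulated serine-threonine kinase NO30G00580 was also higher (67.7 to 75.7 in M3 and 111.7 to 117 in M4). SNF1 kinase homolog 10, NO02G00600, belongs to a kinase family that responds to low energy, and it was lower, at 19.3 to 21.9 in M3 and 8.24 to 13.96 in M4 (-0.91, SE 0.20, adjusted p = 0.00825). The calcium-dependent protein kinase NO27G00430 was lower as well, at 116 to 132.6 against 58.3 to 74.6 (-0.89, SE 0.12, adjusted p = 0.00127).

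Further described genes beyond 2-fold were named after their values were seen. Both listed subunits of a heterotrimeric G protein, a switch that passes signals from receptors at the membrane, were higher in M4. NO04G03580, G protein alpha subunit 1, was at 29.4, 32.7 and 28.1 in M3 and 82.2, 72.9 and 76.0 in M4 (1.33, SE 0.24, adjusted p = 0.00332), with the WT at 25.5 to 52.3. NO04G04020, GTP binding protein beta 1, was at 4.49, 2.76 and 3.44 in M3 and 12.1, 14.04 and 12.3 in M4 (1.61, SE 0.26, adjusted p = 0.00189). NO11G00060 matches CYP97B3, of a cytochrome P450 family that hydroxylates carotenoids in plants, and was at 146, 81.1 and 71.7 in M3 and 288, 276 and 267 in M4 (1.54, SE 0.32, adjusted p = 0.00628). NO06G02700, a tubby like protein, was higher by 1.36, and NO17G02870, a cytochrome P450, by 1.295 on the log2 scale.

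Transport genes were described in separate lists. Of the 11 ion channels, metal transporters and water channels, 7 were higher in M4, none lower, and all 11 had a log2 difference above 0 (median 0.81). NO03G04740, an outwardly rectifying K+ channel, was at 2.14, 1.36 and 0.90 in M3 and 5.37, 4.91 and 4.57 in M4 (1.298, SE 0.25, adjusted p = 0.00417). The adjacent K+ channel genes NO10G02520 and NO10G02530 were higher by 0.66 and 0.91 on the log2 scale. NO16G02820, an endoplasmic reticulum calcium ATPase, which pumps Ca2+ out of the cytosol, was at 281, 216 and 215 in M3 and 433, 501 and 450 in M4 (0.96, SE 0.19, adjusted p = 0.00468). The cation exchanger NO10G03820 (0.61, adjusted p = 0.00148), the heavy metal ATPase NO25G01880 (0.81, adjusted p = 0.00859) and the aquaporin NO20G01770 (1.11, adjusted p = 0.00251) completed the 7. These 7 calls were kept under each alternative in which the gene was tested.

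Proton pumps set the gradient that drives many transporters, and 3 of 5 were higher in M4, none lower (median 0.45). The plasma membrane H+-ATPase NO12G00390 was at 780, 680 and 631 in M3 and 1247, 1262 and 1475 in M4 (0.93, SE 0.28, adjusted p = 0.0305), and NO17G00440 was at 181 to 245 and 326 to 419 (0.84, adjusted p = 0.0214). The vacuolar ATPase subunit NO15G01190 was higher by 0.45 (adjusted p = 0.0401). All 3 calls ended without M3 replicate 2, M3 replicate 3, M4 replicate 2 or M4 replicate 3, and their highest adjusted p over all settings were 0.0921, 0.0765 and 0.116. In the list of sulfate transport and sulfolipid synthesis, 3 of 6 were higher and none lower (median 0.45). The sulfate transporter NO11G01800 was at 255, 223 and 222 in M3 and 330, 394 and 416 in M4 (0.70, SE 0.15, adjusted p = 0.00658). The sulfoquinovosyldiacylglycerol synthases NO15G02830 and NO07G01720, which make the sulfolipid of thylakoid membranes, were higher by 0.84 and 0.62 (adjusted p of 0.0370 and 0.0207), and both calls ended without M3 replicate 1, M4 replicate 2 or M4 replicate 3, leaving 1 member called.

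Nitrate assimilation did not pass the test in any of its 4 members (2 at an unadjusted p under 0.05, which 37.6% of all tested genes passed), although all 4 had a log2 difference above 0 (median 0.50). The nitrate transporter NO14G02450 was at 127 to 132 in M3 and 159 to 205 in M4 (adjusted p = 0.416), and nitrate reductase NO14G02460 at 36.3 to 63.4 and 46.4 to 76.8 (adjusted p = 0.239). NO24G02300, which takes part in making the molybdenum cofactor of nitrate reductase, was at 251 to 312 and 404 to 416 (0.52, SE 0.18, adjusted p = 0.0562). Each member was called higher under at least 1 alternative. Without M3 replicate 1 these were NO14G02460 and the nitrite reductase NO26G00710 (adjusted p of 0.0406 and 0.0472), and in the fit of the 6 libraries alone NO14G02450 and NO24G02300 (adjusted p of 0.0309 and 0.0205). Of 5 genes of phosphate uptake and response, the phosphate transporter NO03G01310 was higher (0.34, adjusted p = 0.0268) and phosphate deficiency response 2, NO04G04920, lower (-0.67, adjusted p = 0.0135). Both calls ended without M3 replicate 3 or M4 replicate 3, with adjusted p of up to 0.0961 and 0.0518.

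Chaperones were on the lower side in M4. Of 13 chaperones and heat shock proteins, 4 were lower in M4 and none higher (median -0.40), and 7 passed an unadjusted p of 0.05, all of them lower. NO19G01420, a co-chaperone GrpE, which exchanges the nucleotide of Hsp70 in chloroplasts and mitochondria, was at 397, 482 and 562 in M3, 212, 193 and 237 in M4 and 400 to 511 in the WT (-1.15, SE 0.14, adjusted p = 0.00102). NO16G01260, the disaggregase casein lytic proteinase B3, was at 557, 832 and 1028 in M3 and 415, 364 and 483 in M4 (-0.90, SE 0.20, adjusted p = 0.00778). The stress-inducible protein NO03G04400 (-0.94, adjusted p = 0.00472) and the cyclophilin NO10G00200 (-0.82, adjusted p = 0.00542) were the others. Against the WT these 4 were lower in M4 (log2 differences -1.11 for NO19G01420, -0.96 for NO16G01260, -1.04 for NO03G04400 and -1.12 for NO10G00200, adjusted p of 0.00727 to 0.0220), whereas M3 did not pass the test in any of them (log2 differences of -0.30 to 0.04). In the fit of the 6 libraries alone, the calls of NO16G01260 and NO10G00200 ended (adjusted p of 0.0616 and 0.0625), and the heat shock protein NO20G02120 was called higher in M4 (0.58, adjusted p = 0.0158, against 0.475 in the fit of all libraries). HSP90.1, NO03G01460, was at 127, 154 and 1828 in M3 and 87.1, 77.3 and 1556 in M4, a spread within each clone that exceeds the difference between them.

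Redox enzymes moved both ways, with 5 of 12 higher and 2 lower (median 0.12). The peptide methionine sulfoxide reductase NO21G00950, NoMSR, repairs oxidised methionine in proteins, and it was at 180.3, 205 and 250 in M3, 107, 91.3 and 126 in M4 and 200.8 to 250 in the WT (log2 difference -0.96, SE 0.16, adjusted p = 0.00199). M4 was lower than the WT (-1.10, adjusted p = 0.00738) and M3 differed from it by -0.14 (adjusted p = 0.649). Dehydroascorbate reductase 2, NO01G01360, which restores ascorbate, was lower too (81.4 to 90.8 in M3 and 52.9 to 63.3 in M4). The higher members were alternative oxidase 1A, NO02G00290 (0.52, adjusted p = 0.00787), glutathione S-transferase 6, NO08G00510 (0.70, adjusted p = 0.00641), thioredoxin F2, NO02G01640 (0.44, adjusted p = 0.0113), stromal ascorbate peroxidase, NO10G02430 (0.59, adjusted p = 0.0184) and the thioredoxin NO07G00250 (0.99, adjusted p = 0.0331). The 5 higher members were 2 without M4 replicate 2 and 3 without M3 replicate 3 or M4 replicate 3. NO21G00950 overlaps another gene, as do NO17G02330, NO16G02820, NO12G00390, NO03G01310, NO04G04920 and NO10G00200 above, and reads in such overlaps cannot be told apart without strand.

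**Figure D4:**
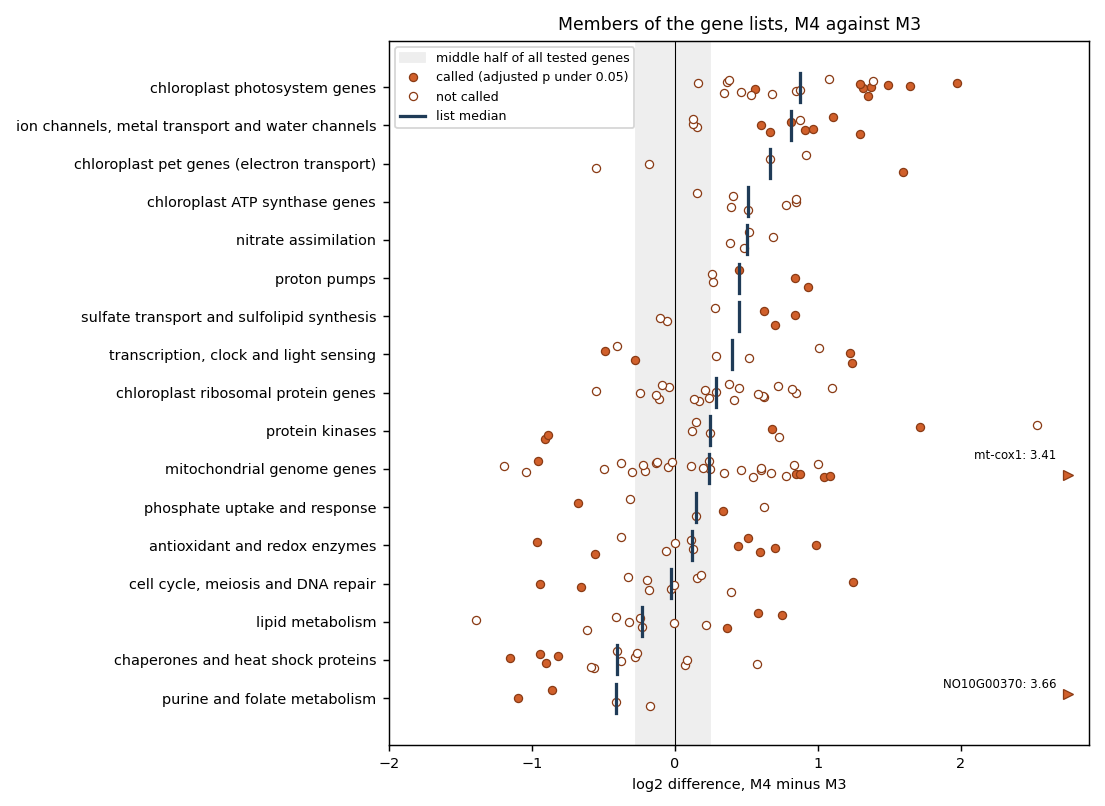
Each point is a tested member of a gene list at its log2 difference, M4 minus M3, filled where the adjusted p over all genes was under 0.05, with a bar at the median of the list and a grey band over the middle 50% of all tested genes (-0.27 to 0.25). All 11 transport genes of the second row lie above 0, and the chaperone list has its 4 filled points on the negative side; triangles with a value lie beyond the axis.

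Of 11 tested lipid genes, 3 were higher in M4 and none lower, although the median of the list was below 0 (-0.23). At an unadjusted p under 0.05 in limma, 3 were higher and 2 lower. The PTPLA-like NO02G00050 had the largest difference of the list (-1.39, adjusted p = 0.0721) and was called lower without M4 replicate 1. The study describes the lipid droplet surface protein NO11G02550 as a major protein of lipid droplets in *N. oceanica*. It was at 1469, 1301 and 1448 in M3, 1635, 1819 and 1979 in M4 and near M4 in the WT (0.36, SE 0.12, adjusted p = 0.0412). This call ended in 7 of 19 settings, among them the omission of any 1 library but M4 replicate 1. The other higher genes were the Sec14p-like NO13G02950, which moves phosphatidylinositol (0.75, adjusted p = 0.0114), and the phospholipase C-like NO04G01100 (0.58, adjusted p = 0.0446). The call of NO04G01100 ended without any 1 library of the clones. This gene overlaps NO04G01090, which was higher in M4 as well (0.61), and reads in the overlap cannot be told apart without strand. The count of higher members was 0 without M3 replicate 3 and 1 without M3 replicate 1, M3 replicate 2, M4 replicate 2 or M4 replicate 3. The diacylglycerol acyltransferase NO07G01500, which forms triacylglycerol, was at 46.2, 39.6 and 8.95 in M3 and 10.97, 48.2 and 8.05 in M4, and a difference was not detectable within this spread.

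In purine and folate metabolism 1 of 5 was higher, the cycloligase on chromosome 10, and 2 were lower (median -0.41). Adenosine kinase 1, NO22G00410, which turns adenosine into AMP and takes part in the methyl cycle, was at 35.5, 49.7 and 63.4 in M3, 23.2, 23.4 and 19.5 in M4 and 20.9 ± 4.13 (SD, n = 3) in the WT. It was lower in M4 than in M3 (-1.10, SE 0.24, adjusted p = 0.00677) and higher in M3 than in the WT (1.19, adjusted p = 0.0435). NO12G02010, a folylpolyglutamate synthase homolog, which adds glutamate to folates, was at 20.8, 17.2 and 16.0 in M3 and 10.5, 9.39 and 8.47 in M4 (-0.86, SE 0.20, adjusted p = 0.00962). Among 11 tested genes of the cell cycle, meiosis and DNA repair, beta-6 tubulin NO04G01220 was higher (4.94 to 8.17 in M3 and 12.2 to 31.7 in M4, adjusted p = 0.0416), and cyclin NO19G00890 (-0.65, adjusted p = 0.0150) and NO17G00510, listed as a protein with a kinesin motor (-0.95, adjusted p = 0.0256), were lower. These 3 calls ended without M3 replicate 2 or M4 replicate 2, when no member was called, and in the fit of the 6 libraries alone (adjusted p of 0.0926, 0.0663 and 0.143).

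A nuclear antenna gene and some genes of protein synthesis were among the lower genes beyond 2-fold, named after their values were seen. No list of antenna or protein synthesis genes was made, so these single genes do not describe their groups. NO09G00450 is listed as photosystem I light harvesting complex gene 6 and was at 4550, 4680 and 5723 in M3 and 1932, 1504 and 1972 in M4 (-1.47, SE 0.23, adjusted p = 0.00169), with the WT spread over 2247, 2544 and 4124. It overlaps NO09G00440 on the opposite strand, which was lower in M4 as well (-0.72, adjusted p = 0.00407). The translation elongation factor EF-Ts, NO20G02570, was at 54.5, 69.6 and 84.0 in M3 and 29.1, 26.5 and 33.9 in M4 (-1.17, SE 0.17, adjusted p = 0.00138). Ribosomal protein S21e, NO03G01740, was at 297, 302 and 375 in M3 and 169, 147 and 160 in M4 (-1.02, SE 0.19, adjusted p = 0.00364). The WT was at 195, 130 and 168, so M3 was the clone that differed from it (0.99, adjusted p = 0.0432). M4 differed from the WT by -0.03 (adjusted p = 0.961). NO03G05320, a U3 ribonucleoprotein of ribosome assembly, was lower by 1.38 on the log2 scale (adjusted p = 0.0120). Its WT values of 28.6 to 51.7 did not pass the test against M3 (0.94, adjusted p = 0.158) or M4 (-0.44, adjusted p = 0.499).

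Chloroplast transcripts were higher in M4 as far as they differed. Of 68 tested chloroplast genes 11 were higher and none lower, and 57 had a log2 difference above 0 (median 0.52). Photosystem genes made up most of them, with 8 of 19 tested higher in M4 and all 19 above 0 (median 0.88). psbD and psbC encode core proteins of photosystem II, and psbD was at 5.97, 7.12 and 6.32 in M3 and 16.4, 29.5 and 22.8 in M4 (1.64, SE 0.23, adjusted p = 0.00136). psbC, which overlaps it, was at 4.59 to 5.62 and 12.1 to 17.8 (1.37, adjusted p = 0.00218), and psaA of the photosystem I core at 2.76 to 3.93 and 6.94 to 14.1 (1.35, adjusted p = 0.00658). psbA, which encodes the D1 protein, was at 102 to 110 in M3 and 144 to 180 in M4 (0.56, adjusted p = 0.0404), and this call ended without any 1 library of the clones. The 8 were 5 without M3 replicate 2, M4 replicate 2 or M4 replicate 3.

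The remaining organelle groups had fewer calls. Of 5 tested pet genes of electron transport, petB, a subunit of the cytochrome b6f complex, was higher (1.60, SE 0.38, adjusted p = 0.0104). Its subunit genes petG and petN, and petF and petJ-2, named for the soluble carriers ferredoxin and cytochrome c6, did not pass the test. None of 7 ATP synthase genes was called by limma (2 at an unadjusted p under 0.05), which became 1 without M3 replicate 2 or M4 replicate 1 and 2 in the fit of the 6 libraries alone. None of 21 chloroplast ribosomal protein genes was called (2 at an unadjusted p under 0.05), which became 1 without M3 replicate 3. Of 30 tested mitochondrial genes 5 were higher and 1 lower. Cytochrome b, cob, was at 4.85, 3.07 and 3.99 in M3 and 9.32, 7.93 and 11.3 in M4 (1.08, SE 0.24, adjusted p = 0.00735), and cox2, cox3 and atp6 were higher by 0.84, 0.88 and 1.04. The last, cox1, was listed at 0 in all M3 libraries but replicate 2, and its call ended in 11 of 17 settings. The call of tatC, which was lower, ended in 7 of 17. The mitochondrial counts were 1 higher and 0 lower without M4 replicate 2, and 2 higher and 0 lower without M3 replicate 3. All these values are small, and the summed share of organelle genes was above that of M3 in every M4 library, so that more organelle transcript per cell and more organelle RNA kept during library making cannot be told apart. Without the organelle genes the clones had 2405 called genes and 10 DEGs.

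The mean of the WT was between those of M3 and M4 in 2122 of the 2421 called genes (87.6%), against 4903 of all tested genes (51.9%). The called genes were chosen for their gap between M3 and M4, and a wide gap is more likely to hold a further mean, so this share is a description only and says nothing of the clones' directions from the WT. Against the WT, 93 genes were called in M3 (0.985%) and 503 in M4 (5.33%), and of the 2421 genes 1935 were called against the WT in neither clone, 405 in M4 only, 78 in M3 only and 3 in both. The comparisons with the WT share its 3 libraries, and whether the clones differ in their number of changes was not tested. There were 5 DEGs in M3 against the WT (0.053%) and 0 in M4 (0%), where limma found 2011 genes at an unadjusted p under 0.05 (21.3%).

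In 3 genes the clones were on opposite sides of the WT with all 3 comparisons called, and in each M3 was above and M4 below. NO14G02380 was at 138, 148 and 165 in M3, 65.9, 53.4 and 65.2 in M4 and 107.8, 84.8 and 80.97 in the WT. NO18G00640 was at 122, 102 and 125 in M3, 53.3, 53.4 and 58.9 in M4 and 79.4, 68.6 and 83.5 in the WT. NO23G00090 was at 322, 323 and 404 in M3, 167, 159 and 175 in M4 and 247, 221 and 203 in the WT. Their 3 groups of libraries do not overlap, and their log2 differences of M4 from M3 were -1.27, -1.06 and -1.05 (SE 0.14, 0.10 and 0.10). Of these, NO14G02380 and NO23G00090 were also higher in M2 than in M1 (0.95 and 0.88).

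The other pair of clones with a shared knocked-out gene, M2 and M1, gave a measure of scale. In the titles M1 and M2 share the code A1763, whereas M3 and M4 have different codes, A1761 and A1762. Whether the pairs are alike in origin was not tested. M2 against M1 had a similar number of called genes, 2443 (25.9%), and 142 DEGs (1.5%), against the 10 between M4 and M3. The count of 142 rested on the shared estimate of spread, since the fit of the 6 libraries of M1 and M2 alone gave 2 DEGs and that of M3 and M4 alone gave 7. The pairs share no library, and 1057 genes were called in both, which is 43.7% of the genes called in M4 against M3 and 43.3% of those called in M2 against M1. Of these, 982 differed in opposite directions, with 511 higher in M4 and lower in M2, and 471 lower in M4 and higher in M2, while 75 differed in the same direction. Over all 9440 tested genes the relation was weaker, with opposite signs in 64.4% of genes, against 92.9% of the genes called in both, and r of -0.206 between the log2 differences, across genes that are not independent. Both pairs take their spread from the same fit, which can favour the same genes for a call. What lies behind the opposite directions was not tested. With separate fits 508 genes were called in both, 482 of them in opposite directions. M4 and M2 are named second in each pair by their numbers only, so the sign of either difference is a matter of naming.

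Some single genes show the same arrangement. The aureochrome NO01G04880, higher in M4 than in M3, was at 28.1 to 57.5 in M1 and 8.93 to 11.4 in M2. G protein alpha NO04G03580 was at 29.8 to 53.3 in M1 and 6.93 to 9.07 in M2, and the antenna gene NO09G00450, lower in M4, was at 2640 to 4209 in M1 and 7397 to 7497 in M2. Other named genes did not. The chaperone NO19G01420 was at 395 to 423 in M1 and 297 to 385 in M2 (log2 difference -0.28, adjusted p = 0.158). NoMSR, NO21G00950, was called lower both in M4 against M3 and in M2 against M1 (-0.96 and -0.55). The same held for the cyclophilin NO10G00200 (-0.82 and -0.95). Of the 13 chaperones, 5 were lower and 1 higher in M2 than in M1 (median -0.84), so the list median was below 0 in both pairs. The medians of lipid metabolism and of the cell cycle, meiosis and DNA repair were below 0 in both pairs as well. Other lists had the reverse sign in M2 against M1. Of the 11 ion channels, metal transporters and water channels, 8 were lower and 0 higher (median -0.90). Of 5 proton pumps 4 were lower and 0 higher (median -0.84), and of 19 photosystem genes 10 and 0 (median -0.94). Of the 142 DEGs of M2 against M1, 87 were called in M4 against M3, and 86 of these in the opposite direction, whereas 3 genes were DEGs in both pairs.

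**Figure D5:**
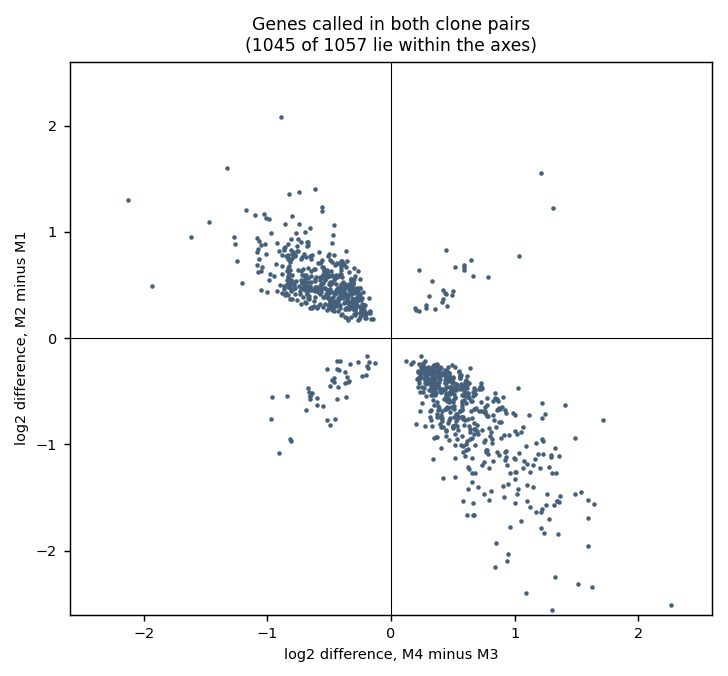
Each point is a gene called at an adjusted p under 0.05 in both pairs of clones, with its log2 difference M4 minus M3 on the horizontal axis and M2 minus M1 on the vertical axis; 1045 of 1057 genes lie within the axes. Most points are in the upper left (471 genes, lower in M4 and higher in M2) and lower right (511 genes).

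The differences were spread over the genome. On the 30 nuclear chromosomes the share of tested genes called was 19% to 30.7%, and the median log2 difference of a chromosome was between -0.08 and 0.04. Runs of at least 3 adjacent genes called in the same direction numbered 80, with at most 5 genes in a run. Of all genes 23.4% overlap another and can share reads with it, and the number of runs without clustering was not worked out. The 80 are therefore a count only. The 3 genes on chromosome 10 were the only run of DEGs. The run that held NO18G00640 spanned 4 genes on chromosome 18 from 266063 to 271611, with a median of -0.85.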

How the data were processed

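Expression of 10493 genes in 15 libraries was taken from the deposited matrix, a signal scaled by TMM from TPM. Each of its columns equals the deposited StringTie TPM of that library times 1 factor (0.947 to 1.05). Deposited FPKM and coverage entered only as their ratio, as a guide to depth. The study's methods give STAR in nf-core/rnaseq as the aligner and Trinity with RSEM for the expression matrix, which differs from the StringTie values found here. They name a NEBNext Ultra RNA kit, taken here as not marking strand, and the strand setting of the counting was not given in the sources used here. Read counts were not used here, so a count test was not run and counting errors are unknown. Genes with a mean of at least 1 (9440) entered limma 3.58.1 (R 4.3.3) as log2(value + 1), in 1 fit of all 15 libraries with a mean per group, a variance trend and Benjamini-Hochberg adjustment. Fold changes of low genes are understated by the pseudocount of 1. The fit was tested on simulated data with known changes in 100 genes of each size. It recovered 77% of log2 changes of 1.5 and 90% of those of 3 as DEGs. There were 0 false DEGs and 10 false calls at an adjusted p under 0.05. The simulated noise was normal and independent between genes, so switches between neighbouring genes were not covered. The p-values cover the spread between replicate cultures of 1 clone each.

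Named genes are the knocked-out genes and those in the study's text, the DEGs between M4 and M3, list members, genes near 0 in 1 clone, genes in runs of DEGs and genes on opposite sides of the WT. Others are said to be named after their values were seen. The members, lists and rules were chosen with earlier results of these data known. Positions follow the deposited tables (IMET1v2 assembly per the study). Alternatives were other pseudocounts, filters, scalings, fits, thresholds and the omission of single libraries. Figures were drawn with Python 3.11.15 and matplotlib 3.10.9.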

Additional observations from a re-analysis of the deposited data

Results flagged for a closer look

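In 3 genes the clones of the same knockout differed from the WT in opposite directions, and the difference between the clones was itself tested with limma. NO14G02380 was higher in M3 than in the WT (log2 difference 0.72, adjusted p = 0.0435) and lower in M4 (-0.56, adjusted p = 0.0423), and M4 differed from M3 by -1.27. NO18G00640 was higher in M3 (0.58, adjusted p = 0.0406) and lower in M4 (-0.47, adjusted p = 0.0274), with -1.06 between the clones. NO23G00090 was higher in M3 (0.64, adjusted p = 0.0286) and lower in M4 (-0.41, adjusted p = 0.0428), with -1.05 between the clones. Both comparisons with the WT use the same 3 libraries of the WT.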

How the results depend on the processing

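The number of DEGs between M4 and M3, 10 as reported, was 8 to 14 under other pseudocounts, filters, scalings and variance models, 7 in a fit of the 6 libraries alone, of which 1 was among the 10, and 6 to 13 with 1 library of M3 or M4 left out. Over all tested genes, deviations of same-numbered libraries of M3 and M4 correlated with r of -0.07, -0.01 and 0.06. Not every library correlated best with its own number. A correlation over all genes cannot exclude a shared deviation in some genes. NO05G00120, for example, was listed at 0 in replicate 2 of M3, M4, the WT and M2, but not of M1. With the replicate block there were 6 DEGs, all among the 10, and 2207 called genes. Looser thresholds gave 914 genes (adjusted p under 0.05 and 1.5-fold) and 225 (2-fold). Chosen after seeing the data, leaving out genes that switch within a group gave 34 DEGs, 10 of them shared. The 2421 called genes were 1512 in the fit of 6 libraries and 1392 to 2499 without 1 library, lowest without M4 replicate 2. M3 against the WT had 5 DEGs, 2 in a separate fit, 51 at 1.5-fold and 5 to 7 with 1 library left out. M4 against the WT had 0 DEGs, 2 with a pseudocount of 5, 1 on unscaled TPM, 2 in a separate fit, 1 without switching genes, 154 at 1.5-fold and 0 to 3 with 1 library left out. M2 against M1 had 142 DEGs, 2 in a separate fit, 76 with the replicate block and 1076 at 1.5-fold. There were 80 runs of 3 at an adjusted p under 0.05 against 1 run of DEGs. On unscaled TPM, 1243 of 2267 called genes were higher in M4, against 1112 of 2421 as reported. Of 95 named genes called, 56 kept the call under every alternative, 39 lost it under at least 1 and 0 reversed, and of 125 not called, 25 gained a call under at least 1. Other scalings moved the median of all genes by less than 0.1. Without read counts, depth sets an unknown limit on genes with low values.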
